A study of Ursus arctos with 12 samples.

Results

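The SLC25 family of mitochondrial carriers was examined in thigh muscle of brown bears (Ursus arctos) in hibernation and in the active season. Members were the genes whose symbol starts with SLC25A and that had at least 30 reads over the 12 libraries. The ADP/ATP carriers SLC25A4, SLC25A5 and SLC25A6, the oxoglutarate carrier SLC25A11, the aspartate-glutamate carriers SLC25A12 and SLC25A13, the carnitine carrier SLC25A20 and the uncoupling protein relatives SLC25A14 and SLC25A27 were left out by the rule. Of the 45 SLC25A symbols in the table, 36 remained and 33 had enough reads, out of 17290 genes tested. The remaining 3 were at or near 0 in this muscle, with 0 reads over all libraries for SLC25A41, 1 for SLC25A31 and 2 for SLC25A47. SLC25A2, SLC25A24 and SLC25A52 were not analysed here.

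Most SLC25 proteins sit in the inner mitochondrial membrane, which ions and metabolites do not cross unaided. Each carrier exchanges or imports a small set of substrates, such as phosphate, citrate, amino acids, nucleotides, iron or cofactors, between the cytosol and the matrix. In muscle they feed phosphate to ATP synthase, link the tricarboxylic acid cycle with the cytosol, and bring in the building blocks for haem, iron-sulphur clusters, coenzyme A and mitochondrial DNA.

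The 6 bears were free-ranging animals 2 to 3 years old. The winter group was the vastus lateralis biopsied during hibernation in February, and the summer group the same muscle of the same bears biopsied in the active period in June of that year, with no other treatment named. Each of these 2 groups held 6 libraries, and replicates are bears. A biopsy holds vessels, connective tissue and fat beside the fibres.

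Between 20191068 and 27283155 reads per library were counted on genes in summer, and between 16742406 and 32140160 in winter. Season separated the libraries on the first principal component (41.5% of the variance), and the winter library of bear 1509 lay apart on the second, at −98.6 against 6.35 to 23.1 for the other winter libraries. The 10 skeletal muscle fibre markers, from CKM to TTN, together held 124000 to 199000 CPM (reads scaled to a common library total) in summer and 133000 to 175000 in winter, so the muscle label was met. Of the 42 tested markers of 8 other cell types, 23 passed the test described below as lower in winter, where all genes gave 21.2%. The summed level of the 6 fibroblast markers ran from 4180 to 11300 CPM in summer and from 269 to 1620 in winter, and that of the 6 endothelial markers from 606 to 941 and from 396 to 472. The sums of the other lists were 627 to 1990 in summer and 301 to 577 in winter for adipocytes, 500 to 634 and 281 to 357 for smooth muscle and pericytes, and 39.4 to 71.3 and 24.1 to 50.9 for macrophages and leukocytes. Of the adipocyte markers 2 passed as lower, FABP4 and LPL. The other 4, ADIPOQ, PLIN1, CIDEC and LEP, passed in neither direction. For satellite cells the sums were 12.9 to 23.9 and 5.96 to 27.3, and for nerve and Schwann cells 12.3 to 40.6 and 5.99 to 126. Among erythroid markers HBB and HBA were not analysed here, and the others summed to 0.763 to 5.04 CPM in summer and 0.286 to 2.92 in winter. The part of these cells in the carrier values was not tested, and in bulk tissue fewer cells of a type and less RNA per cell cannot be told apart.

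Levels below are CPM scaled by edgeR's TMM method. They are not divided by gene length, so they compare seasons and bears for a gene and not genes with each other. Fold changes are log2 winter over summer from edgeR's quasi-likelihood test with the bear as a block, with a standard error (SE), and a gene was called at a Benjamini-Hochberg adjusted p below 0.05 over all genes tested. The log2 shift of a single bear was taken after adding a prior count of 2, which pulls the shifts of genes with few reads towards 0.

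In winter 7 of the 33 carriers rose and 12 fell, while 14 were not called. Over all genes tested 19.6% were higher and 21.2% lower, so 40.8% were called, against 57.6% of the carriers. The median log2 fold change of the carriers was −0.10, with a range from −2.51 to 1.05, and that of all genes was −0.01. Called or not, 5 of the 33 carriers were higher in 6 of 6 bears, where all genes gave 18.4%, and 10 of the 33 were lower in 6 of 6, where all genes gave 19%. In 4 carriers every winter library lay above every summer library (9.12% of all genes), and in 6 every winter library lay below (8.21%). The lower counts by call, by bears and by overlap include SLC25A48 and SLC25A35. These 2 passed the read filter only through summer, where they were higher, so the lower counts are a description. With library totals in place of TMM 4 carriers rose and 12 fell, where all genes gave 15.6% and 23.6%. With season as the only term 7 rose and 11 fell, where all genes gave 19.6% and 19.9%. At an adjusted p below 0.01 and a fold above 1.3 or below 0.77, 3 rose and 7 fell, where all genes gave 12.2% and 13.4%. The number that rose was also 4 without bear 1305, 1511 or 1512, and the genes called higher over the whole table then numbered 2619, 3098 and 2774 in place of 3392.

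**Figure D1:**
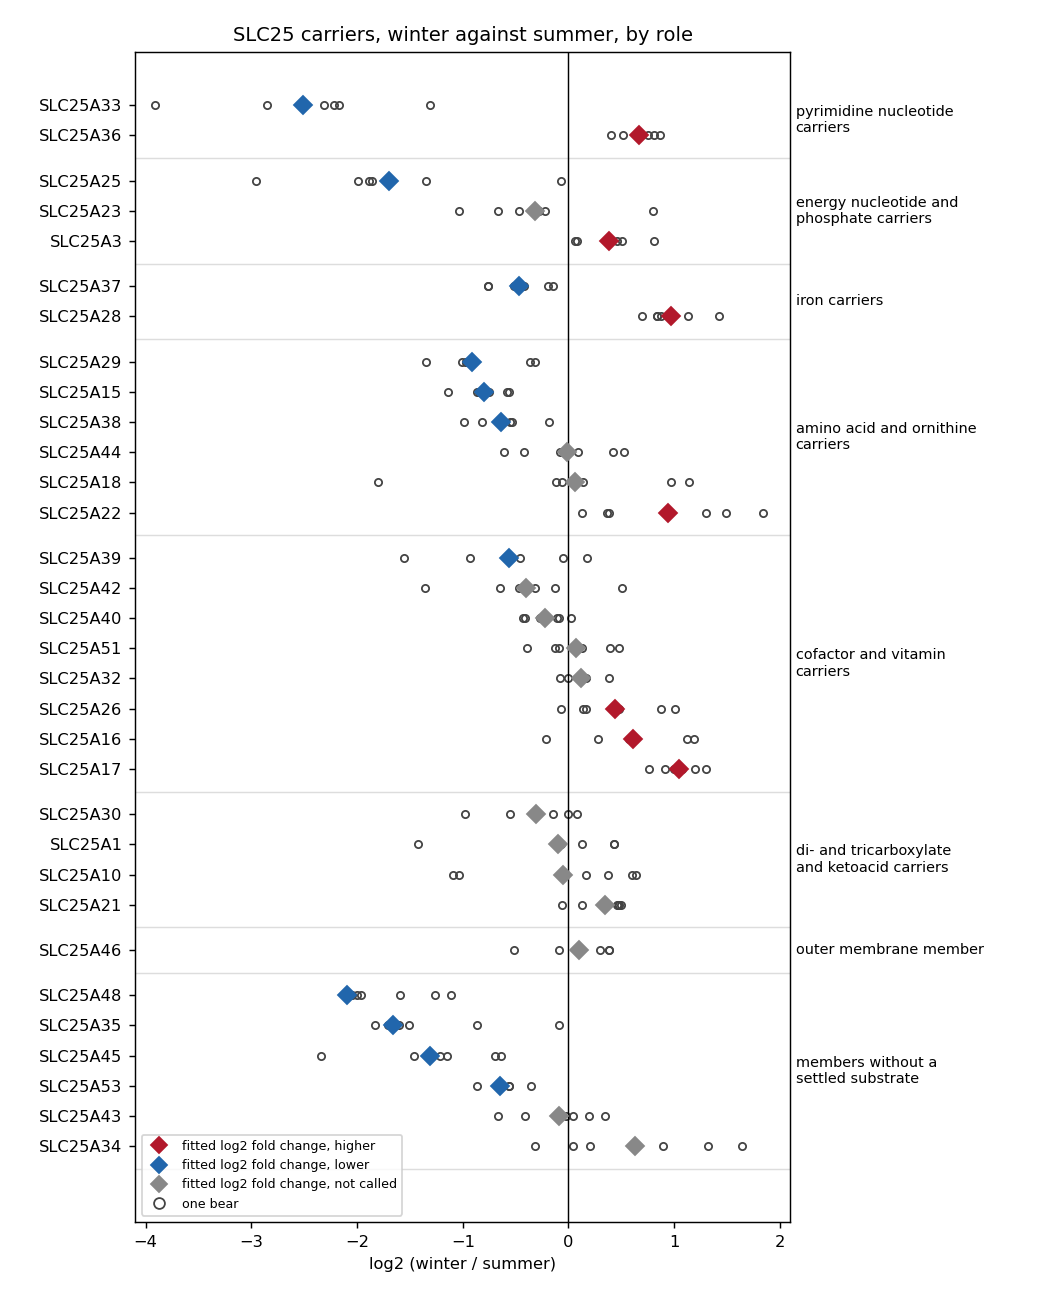
Log2 winter over summer of the carriers reported here one by one on the horizontal axis, grouped by role. Open circles are the 6 bears (prior count 2) and diamonds the fitted log2 fold change, red where called higher, blue where called lower and grey where not called. SLC25A33 at −2.51 and SLC25A17 at 1.05 are the ends of the range, and the pyrimidine nucleotide, energy nucleotide and phosphate, iron, amino acid and cofactor groups each hold calls in both directions.

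SLC25A33 and SLC25A36 both bring pyrimidine nucleotides into the matrix, where they are used for mitochondrial DNA and RNA synthesis, and they moved in opposite directions. SLC25A33 had a lowest, median and highest level of 4.34, 6.74 and 13.1 CPM in summer and of 0.788, 1.16 and 1.82 CPM in winter. The seasons did not overlap, and the highest summer library, bear 1317, became the lowest winter library. Its log2 fold change of −2.51 (SE 0.29, adjusted p = 0.00012) was the largest fall among the 33 carriers, with single bears from −3.91 to −1.31 and 6 of 6 lower. It rested on 14 to 301 reads per library.

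SLC25A36 stood at 24, 28.3 and 40.8 CPM in summer and at 42.1, 46.2 and 54 CPM in winter. Every winter library lay above every summer library, although the lowest winter level came close to the highest summer level, that of bear 1512. The log2 fold change was 0.67 (SE 0.10, adjusted p = 0.000595). The smallest shift of a bear was 0.40 and the largest 0.87.

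The calcium-regulated ATP-Mg/phosphate carriers adjust the adenine nucleotide content of the matrix. SLC25A25, one of them, fell from 26.4, 53.3 and 99.2 CPM (lowest, median and highest) in summer to 11, 15.6 and 25 CPM in winter. Summer libraries varied widely, with bears 1305 and 1511 at 85.9 and 99.2 CPM. Bear 1512 had the lowest summer and the highest winter level, 26.4 and 25 CPM, so its own shift was only −0.07, whereas the other 5 bears shifted by −2.96 to −1.35. The log2 fold change was −1.70 (SE 0.29, adjusted p = 0.00116).

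SLC25A23, the other ATP-Mg/phosphate carrier with enough reads, was at 2.90, 4.35 and 6.15 CPM in summer and 1.79, 3.37 and 5.78 in winter. The seasons overlapped, and it was not called (log2 fold change −0.32, SE 0.23, adjusted p = 0.281). Bear 1511 shifted by 0.80 and the other 5 by −1.04 to −0.22, and without bear 1511 the adjusted p was 0.0498, the lowest over the alternatives, which reached 0.606.

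SLC25A3 is the phosphate carrier that supplies ATP synthase and also carries copper for cytochrome oxidase. It was counted at 26964 to 57495 reads per library and stood at 1270, 1430 and 1680 CPM in summer and 1520, 1900 and 2220 CPM in winter. It was higher in 6 of 6 bears, by 0.06 to 0.81, with bears 1316 and 1317 under 0.10. The log2 fold change of 0.38 (SE 0.14) lay just past the threshold (adjusted p = 0.0449). The call was lost with library totals (adjusted p = 0.126), with no filter (0.0548), and without bear 1305 (0.134), 1509 (0.0847), 1511 (0.123) or 1512 (0.0977).

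The mitoferrins bring iron into the matrix for haem and iron-sulphur clusters. SLC25A28 (mitoferrin-2), the form found in most tissues, was at 8.83, 9.44 and 13.7 CPM in summer and at 14.3, 19.7 and 25.2 CPM in winter. All winter libraries lay above all summer libraries. It rose by 0.97 on the log2 scale (SE 0.12, adjusted p = 0.000197), with single bears from 0.70 to 1.42.

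SLC25A37 (mitoferrin-1), best known from developing red blood cells, was at 26.1, 30.5 and 34.5 CPM in summer and at 18, 21.5 and 29.8 CPM in winter. The ranges overlapped, but 6 of 6 bears were lower. Its log2 fold change was −0.47 (SE 0.12, adjusted p = 0.00915), with single bears from −0.76 to −0.15. The erythroid markers AHSP (−0.85, adjusted p = 0.518) and ALAS2 (0.48, adjusted p = 0.454) were not called, and EPB42 fell (−4.07, adjusted p = 0.000962). Their part in the SLC25A37 values was not tested.

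**Figure D2:**
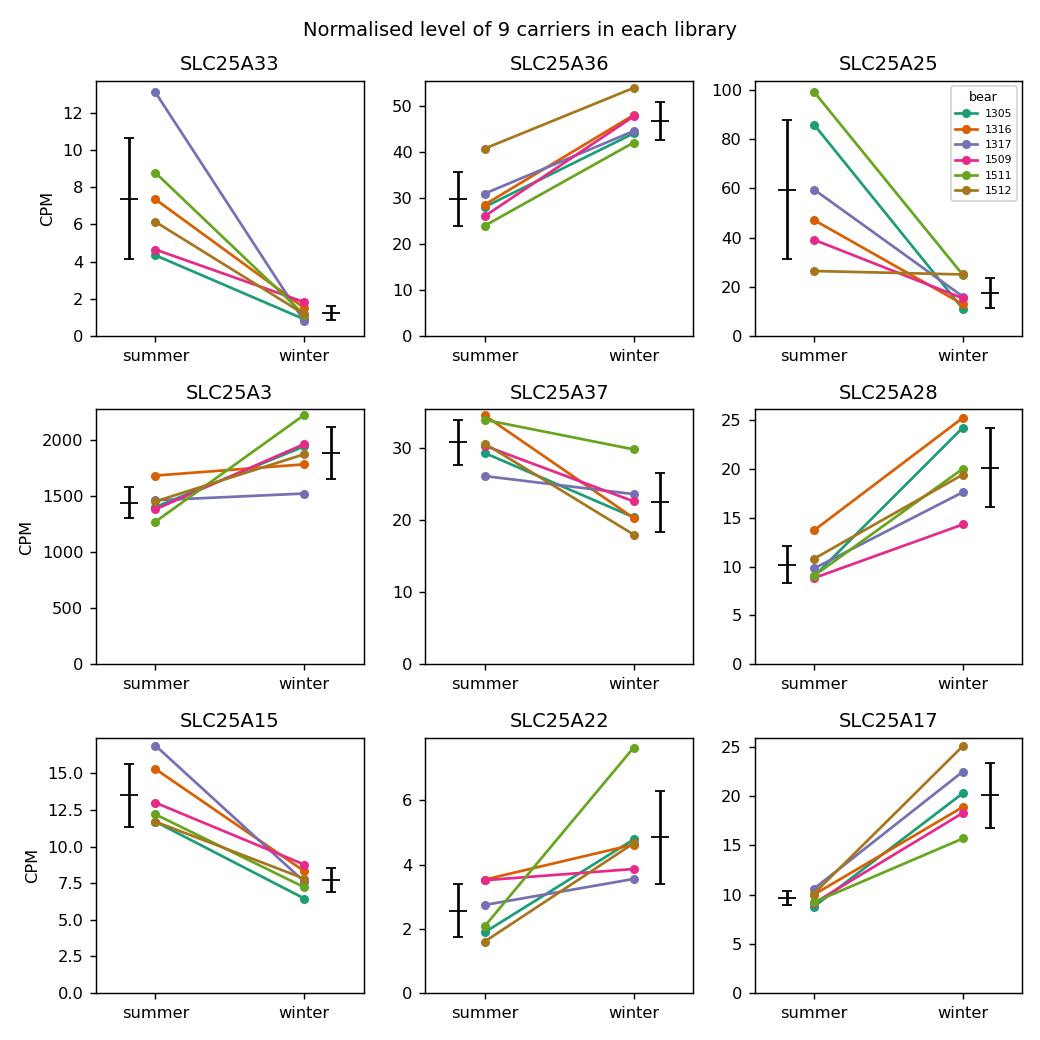
TMM-scaled CPM of 9 carriers (vertical axes start at 0) in each summer and winter library, with a line per bear and the mean ± SD of the 6 bears beside each season. SLC25A33, SLC25A25, SLC25A37 and SLC25A15 were lower in winter in every bear, and the other 5 carriers shown were higher in every bear.

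Of the 6 carriers of amino acids, 3 fell and 1 rose, where over all genes 21.2% fell and 19.6% rose. SLC25A15, the ornithine carrier that links the matrix with the urea cycle and polyamine routes, was at 11.7, 12.6 and 16.9 CPM in summer and at 6.45, 7.71 and 8.77 CPM in winter, with no overlap. It fell by 0.80 on the log2 scale (SE 0.12, adjusted p = 0.00064), in each of the 6 bears by at least 0.56. SLC25A38, which imports glycine for the first step of haem synthesis, was at 3.95, 5.12 and 6.41 CPM in summer and at 2.38, 3.37 and 4 CPM in winter. Only the edges of the seasons met, and the fold change was −0.64 (SE 0.16, adjusted p = 0.00921) with 6 of 6 bears lower.

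SLC25A29, a carrier of basic amino acids, was counted at 8 to 33 reads per library, and its level was 0.718, 1.19 and 1.48 CPM in summer and 0.450, 0.580 and 0.857 CPM in winter. It had a log2 fold change of −0.91 (SE 0.26, adjusted p = 0.0183) and was lower in 6 of 6 bears, but the adjusted p was 0.0523 without bear 1512 (0.0109 to 0.0523 over all alternatives).

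The glutamate carriers SLC25A22 and SLC25A18 take glutamate into the matrix together with a proton. SLC25A22 was at 1.6, 2.41 and 3.53 CPM in summer and at 3.55, 4.64 and 7.64 CPM in winter, so that the seasons were separated by a narrow gap. The log2 fold change was 0.94 (SE 0.25, adjusted p = 0.0132). Bears 1305, 1511 and 1512 shifted by 1.3, 1.84 and 1.49, and bears 1316, 1317 and 1509 by 0.38, 0.36 and 0.13. SLC25A18, at 3 to 32 reads in each library, was not called (0.06, SE 0.46, adjusted p = 0.934), with levels of 0.157, 0.319 and 1.39 CPM in summer and 0.166, 0.376 and 0.630 CPM in winter.

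SLC25A44, which carries branched-chain amino acids into the matrix, was at 6.10, 9.90 and 10.9 CPM in summer and 6.57, 8.97 and 10.3 CPM in winter. The seasons overlapped over nearly their whole range. Its log2 fold change was −0.01 (SE 0.17, adjusted p = 0.961), with 3 bears higher and 3 lower.

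Carriers of cofactors and vitamins made up 9 of the members, and 3 of them rose, where 19.6% of all genes rose. Calls in this group went in both directions. The largest rise of all 33 carriers was that of SLC25A17, which resides in peroxisomes and carries coenzyme A, FAD and NAD. It stood at 8.78, 9.62 and 10.6 CPM in summer, a narrow range, and at 15.7, 19.6 and 25.1 CPM in winter. The seasons were far apart, with a log2 fold change of 1.05 (SE 0.11, adjusted p = 8.57e-05) and single bears from 0.76 to 1.3.

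SLC25A16 and SLC25A42 have both been linked to the supply of coenzyme A to the matrix. SLC25A16 was at 2.02, 2.51 and 3.86 CPM in summer and 3.04, 3.87 and 5.73 CPM in winter. It was higher in 5 of 6 bears, with bear 1316 at −0.21, and its log2 fold change was 0.61 (SE 0.21, adjusted p = 0.0398). The call was lost with library totals (adjusted p = 0.0561) and without bear 1305 (0.0962), 1317 (0.117), 1511 (0.0518) or 1512 (0.129). SLC25A42 was at 5.75, 7.48 and 11 CPM in summer and 4.25, 5.70 and 8.24 CPM in winter, a log2 fold change of −0.40 (SE 0.21, adjusted p = 0.152). Of the bears 5 were lower, with bear 1511 at 0.51 and an adjusted p of 0.0426 without that bear (up to 0.382 in the other alternatives).

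SLC25A26 imports S-adenosylmethionine, the methyl donor of the matrix. It was at 10.8, 13.1 and 19.0 CPM in summer and 11.3, 19.5 and 25.1 CPM in winter, with a log2 fold change of 0.44 (SE 0.16, adjusted p = 0.0433). Bears 1317 and 1511 shifted by 0.88 and 1.01, and bear 1509 by −0.07. It was not called with season as the only term (adjusted p = 0.065), with library totals (0.0683), or without bear 1305 (0.0588), 1317 (0.123), 1511 (0.125) or 1512 (0.0968).

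SLC25A39 and SLC25A40 carry glutathione, the main thiol antioxidant, into the matrix. SLC25A39 was at 9.70, 15.3 and 19.6 CPM in summer and 5.63, 10.1 and 12.8 CPM in winter, with 5 of 6 bears lower. The fold change was −0.56 (SE 0.20, adjusted p = 0.0494). It was −0.36 without bear 1509 (adjusted p = 0.107), and the call was also lost without bear 1305 (0.0936), 1316 (0.134) or 1511 (0.0873) and with RLE size factors (0.0509). SLC25A40 was at 31.5, 37.8 and 40.6 CPM in summer and 27.8, 31.0 and 37.6 CPM in winter, and was not called (−0.22, SE 0.10, adjusted p = 0.117).

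SLC25A32, for folate and FAD, and SLC25A51, for NAD, were not called. They had log2 fold changes of 0.12 (adjusted p = 0.453) and 0.07 (adjusted p = 0.713), with summer medians of 8.93 and 37.5 CPM and winter medians of 9.43 and 38.7 CPM.

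None of the 4 carriers of di- and tricarboxylates and ketoacids was called in edgeR, where 40.8% of all genes were. DESeq2 and limma voom called 0 of the 4 as well. Over the 17290 genes tested DESeq2 called 3255 higher and 3493 lower, and limma voom 3492 and 3759. At an unadjusted p below 0.05 in edgeR 1 of the 4 was higher and 1 lower, beside 4127 and 4401 of the 17290 genes. SLC25A21, which carries oxoadipate of lysine and tryptophan breakdown, had a log2 fold change of 0.35 (SE 0.16, adjusted p = 0.10) with 5 of 6 bears higher. SLC25A30, a relative of the uncoupling proteins, had one of −0.31 (SE 0.14, adjusted p = 0.101) and levels of 123, 144 and 239 CPM in summer and 100, 122 and 148 CPM in winter, where the highest summer library was that of bear 1305.

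SLC25A1 exports citrate, the source of cytosolic acetyl-CoA for lipid synthesis. It stood at 4.69, 7.07 and 8.78 CPM in winter and at 4.96, 5.92 and 21.7 CPM in summer. The high value came from the summer library of bear 1316 alone, while the other summer libraries ended at 6.50 CPM. The log2 fold change was −0.10 (SE 0.23, adjusted p = 0.763), and it was 0.18 (adjusted p = 0.419) without bear 1316.

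SLC25A10, the dicarboxylate carrier that exchanges malate and succinate for phosphate, was also highest in that library, at 9.11 CPM against 2.35 to 4.87 in the other summer libraries and 2.26 to 6.32 CPM in winter. Its log2 fold change was −0.05 (SE 0.27, adjusted p = 0.901), and 0.18 (adjusted p = 0.624) without bear 1316. ACLY, the cytosolic enzyme that splits exported citrate, was at 97.1 CPM in the same library against 28.8 to 39.8 CPM in the other summer libraries. The 6 adipocyte markers summed to 1990 CPM there and to 627 to 932 CPM in the other summer libraries, with ADIPOQ, which encodes adiponectin, at 348 CPM against 13.1 to 40.1. The part of fat tissue in these carrier levels was not tested.

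**Figure D3:**
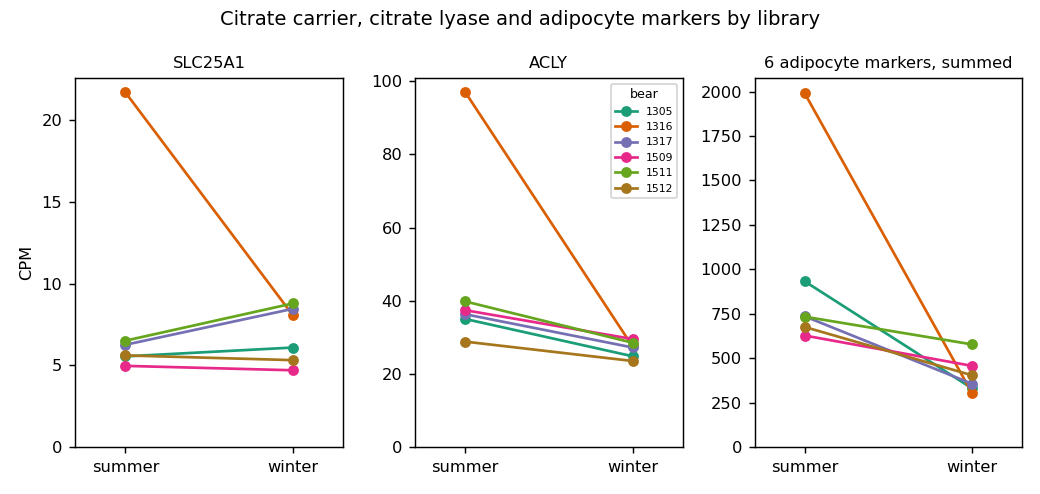
TMM-scaled CPM of SLC25A1, ACLY and the sum of 6 adipocyte markers in each library, with a line per bear and axes that start at 0. The summer library of bear 1316 stands above all others in the 3 panels, at 21.7, 97.1 and 1990 CPM.

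SLC25A46, which sits in the outer membrane and takes part in mitochondrial fission and lipid transfer, was not called. It was at 40.7, 51.9 and 68.6 CPM in summer and 47.1, 56.3 and 70.1 CPM in winter (log2 fold change 0.10, SE 0.13, adjusted p = 0.586), with 4 of 6 bears higher.

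Of the 6 carriers listed without a settled substrate, 4 fell, each in 6 of 6 bears, and most had few reads. Over all genes 21.2% fell and 19% were lower in 6 of 6 bears. SLC25A48 had 1 to 26 reads per library and stood at 0.364, 0.643 and 1.13 CPM in summer and at 0.0552, 0.151 and 0.228 CPM in winter. SLC25A35 had 1 to 14 reads and stood at 0.304, 0.395 and 0.615 CPM in summer and at 0.0420, 0.116 and 0.282 CPM in winter. The seasons did not overlap in either gene, with log2 fold changes of −2.10 (SE 0.37, adjusted p = 0.00128) for SLC25A48 and −1.66 (SE 0.46, adjusted p = 0.0145) for SLC25A35. Both had under 30 reads over the winter libraries, 20 and 18, and so passed the filter through their summer reads.

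SLC25A45, with 8 to 76 reads, was at 0.743, 2.21 and 3.63 CPM in summer and 0.423, 0.628 and 1.80 CPM in winter. The ranges overlapped, but every bear was lower, from −2.34 to −0.64, and the log2 fold change was −1.31 (SE 0.27, adjusted p = 0.00312). SLC25A53 was at 1.17, 1.52 and 1.72 CPM in summer and 0.816, 0.913 and 1.14 CPM in winter, without overlap. It had a log2 fold change of −0.65 (SE 0.21, adjusted p = 0.0292) on 15 to 44 reads. DESeq2 with the same terms did not call it (adjusted p = 0.0894), nor did edgeR without bear 1305 (0.0812), 1316 (0.0644), 1511 (0.0618) or 1512 (0.0654).

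SLC25A34 was at 10.9, 16.4 and 25.6 CPM in summer and 17.6, 26.9 and 39.5 CPM in winter and lay close to the threshold, at 0.63 (SE 0.24, adjusted p = 0.0568). It was called higher with season as the only term (adjusted p = 0.042), with no filter (0.0384), with filterByExpr (0.0484), by limma voom (0.0483) and by DESeq2 (0.0202, and 0.0215 with season alone), and also without bear 1316 (0.0468) or 1509 (0.0136), with 0.169 as the highest, without bear 1512. SLC25A43 was not called (−0.09, SE 0.18, adjusted p = 0.726).

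To ask whether related carriers shifted alike, the season shift of one was subtracted from that of the other in each bear, for 8 pairs. The mean was tested by an exact two-sided sign-flip permutation test. The pairs were chosen with earlier results of these data known, so their p-values describe these pairs and are not an independent test. SLC25A33 minus SLC25A36 was −3.13 ± 0.80 on the log2 scale (SD, n = 6 bears) and negative in 6 of 6. SLC25A28 minus SLC25A37 was 1.43 ± 0.36 (SD, n = 6 bears) and positive in 6 of 6. Both had an exact p = 0.0312, the smallest that 6 bears allow, and an adjusted p = 0.0833 over the 8 pairs. SLC25A34 minus SLC25A35 was 1.90 ± 0.99 (SD, n = 6 bears) and also positive in 6 of 6, but SLC25A35 passed the read filter only through summer, where it was higher, so that this value is a description. Counting it, 3 pairs had an unadjusted p below 0.05 and 0 passed the adjustment by this exact test, which could pass any pair only if at least 6 of the 8 reached the smallest p.

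The other 5 pairs had bears on both sides of 0. SLC25A23 minus SLC25A25 was 1.37 ± 1.24 (SD, n = 6 bears, exact p = 0.0625, adjusted p = 0.10), where bear 1512 alone was negative. SLC25A16 minus SLC25A42 was 1.00 ± 0.86 (SD, n = 6 bears, exact p = 0.0625, adjusted p = 0.10), with bear 1511 alone negative. For SLC25A18 minus SLC25A22 the mean was −0.87 ± 1.11 (SD, n = 6 bears, exact p = 0.156), for SLC25A39 minus SLC25A40 −0.34 ± 0.74 (exact p = 0.375) and for SLC25A45 minus SLC25A48 0.41 ± 0.61 (exact p = 0.188), where SLC25A48 also passed the filter only through summer.

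**Figure D4:**
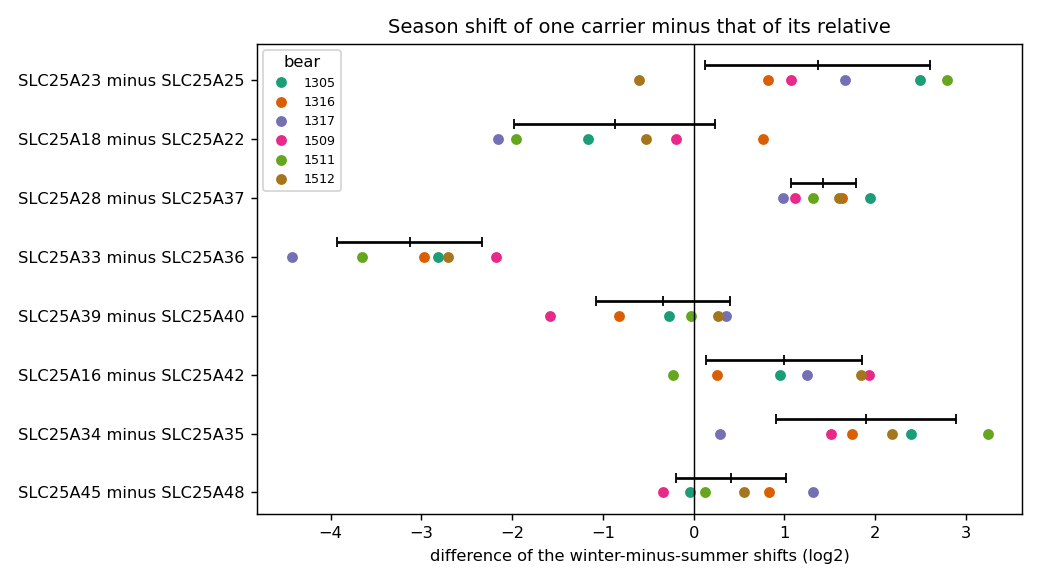
Difference between the log2 winter-minus-summer shifts of related carriers on the horizontal axis, with a dot per bear and the mean ± SD of the 6 bears as a bar above. SLC25A33 minus SLC25A36 lies between −4.43 and −2.18 in all bears, and SLC25A28 minus SLC25A37 between 0.98 and 1.94.

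Other mitochondrial genes were set beside the carriers by lists chosen for function. Newly made carriers are handed from the receptor TOMM70 through the small TIM chaperones to the TIM22 complex, which inserts them into the inner membrane. Of 10 tested genes of this route 1 rose and 2 fell, where over all genes 19.6% rose and 21.2% fell. The median log2 fold change of the route was 0.11. TIMM10 rose by 0.47 (SE 0.09, adjusted p = 0.0026) in 6 of 6 bears. TIMM8B was at −0.73 (SE 0.18, adjusted p = 0.00864) and TOMM70 at −0.39 (SE 0.11, adjusted p = 0.0142, but 0.0514 without bear 1512, and 0.00189 to 0.0514 over all alternatives). TIMM22 itself had a log2 fold change of 0.20 (adjusted p = 0.317).

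Among 21 other mitochondrial transporters 5 rose and 10 fell, with a median of −0.21, where over all genes 19.6% rose and 21.2% fell. CPT1A and CPT1B, which commit fatty acids to carnitine-dependent import, rose by 1.29 (SE 0.18, adjusted p = 0.000296) and 0.63 (SE 0.15, adjusted p = 0.00778), and the sideroflexin SFXN4 by 0.61 (SE 0.11, adjusted p = 0.00159). CPT2, also in this list, was called lower, at −0.46 (SE 0.16, adjusted p = 0.0407), with 5 bears lower and 1 higher. The largest falls were those of the half-transporter ABCB8, at −1.43 (SE 0.18, adjusted p = 0.000217), of the outer membrane SLC25 relative MTCH2, at −0.91 (SE 0.11, adjusted p = 0.000183), and of the sideroflexin SFXN5, at −0.87 (SE 0.11, adjusted p = 0.000182). MTCH2 went from 139 to 160 CPM in summer to 65.5 to 94.5 CPM in winter.

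Of 30 enzymes that use or make the substrates of the carriers, 2 rose and 14 fell, with a median of −0.37. The shares over all genes were 19.6% and 21.2%. MTHFD2, of mitochondrial folate metabolism, had a log2 fold change of −1.99 (SE 0.24, adjusted p = 0.000163), while its folate carrier SLC25A32 was not called. ALAS1, which makes the first haem precursor from glycine, had one of −1.82 (SE 0.16, adjusted p = 3.64e-05) beside the fall of the glycine carrier SLC25A38. BCAT2, the first enzyme of branched-chain amino acid breakdown, had one of −1.71 (SE 0.13, adjusted p = 1.18e-05), while SLC25A44 was not called. OAT, which makes or uses ornithine in the matrix, was at −0.75 (SE 0.12, adjusted p = 0.000703) beside the fall of SLC25A15, and was named after its value was seen.

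The 2 enzymes that rose were COASY, of coenzyme A synthesis, by 0.60 (SE 0.14, adjusted p = 0.007), and TK2, the matrix thymidine kinase, by 0.56 (SE 0.17, adjusted p = 0.0203). Of the other listed genes of coenzyme A synthesis, PANK2 was at −0.76 (SE 0.15, adjusted p = 0.00238), and PANK1 and PANK3 were not called. The call of TK2 was lost without bear 1305 (adjusted p = 0.0732), 1316 (0.0619) or 1512 (0.0588), and its adjusted p was as low as 0.00266 in another alternative. ACLY fell by 0.64 (SE 0.19, adjusted p = 0.0195) on the log2 scale, and by 0.40 (SE 0.10, adjusted p = 0.0141) without bear 1316.

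The 61 tested genes picked by symbol for complex I, complex II and ATP synthase (NDUF, SDH and ATP5 names) gave 0 higher and 37 lower in edgeR, with a median of −0.51 (DESeq2 gave 1 and 39, limma voom 0 and 37, and an unadjusted p below 0.05 in edgeR 1 and 42). Over all genes edgeR gave 19.6% higher and 21.2% lower. Of the 17290 genes DESeq2 gave 3255 higher and 3493 lower, and limma voom 3492 and 3759. An unadjusted p below 0.05 in edgeR gave 4127 and 4401. The 61 genes include NDUFA4, now placed in complex IV, its relative NDUFA4L2 and the ATP synthase inhibitor ATP5IF1. The other subunits of complexes III and IV were not analysed here. The phosphate carrier SLC25A3, which rose, stood above 61 of these 61 genes in log2 fold change, since their highest was 0.29, for ATP5MC2. The difference between them was not tested.

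Among the related genes left out by the rule and the uncoupling proteins, 11 tested, 2 rose and 4 fell, with a median of −0.10. Over all genes 19.6% rose and 21.2% fell. The 5 not called were SLC25A6, SLC25A12, SLC25A13, SLC25A14 and SLC25A27. The carnitine carrier SLC25A20 rose by 1.04 (SE 0.14, adjusted p = 0.000272) and UCP3 by 1.01 (SE 0.18, adjusted p = 0.00164). SLC25A11 was at −1.13 (SE 0.19, adjusted p = 0.000912), SLC25A4, the ADP/ATP carrier of muscle, at −0.81 (SE 0.16, adjusted p = 0.0028), UCP2 at −0.78 (SE 0.19, adjusted p = 0.00832, and 0.00128 to 0.0534 over the alternatives, highest with season as the only term) and SLC25A5 at −0.58 (SE 0.14, adjusted p = 0.00888).

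**Figure D5:**
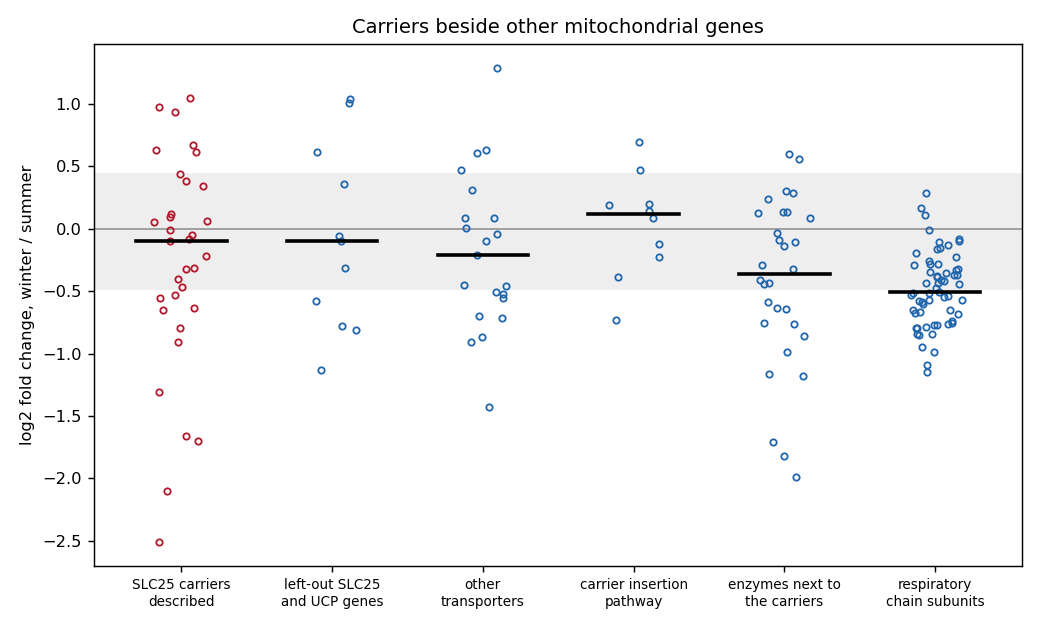
Log2 fold change, winter over summer, of each tested gene (circles) in 6 groups, with the median of the group as a black bar. The grey band is the middle 50% of all genes tested, from −0.48 to 0.44, and the carriers, with a median of −0.10, spread below and above it, whereas the respiratory chain group (NDUF, SDH and ATP5 names) has a median of −0.51.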

How the data were processed

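Muscle mRNA of 6 bears was sequenced in 2 seasons. The authors made stranded libraries, sequenced single 50-base reads, aligned them with TopHat 2.1.1 to ASM358476v1, dropped alignments with over 3 mismatches and counted them on the opposite strand with featureCounts 1.6.2. The deposited values are raw read counts per gene, neither normalized nor filtered. The files hold no gene lengths, and lanes were not assigned to libraries here.

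Genes under 30 reads in all were dropped, as in the methods. R 4.3.3 and edgeR 4.0.16 were used (TMM, glmQLFit, glmQLFTest), with DESeq2 1.42.0 and limma 3.58.1 voom as alternatives. The bear was a term (replicate block) of the fit because the rule for the members pairs libraries by animal and the methods state that both came from 1 individual. The design formula is not given in the sources used here. The SE is the fold change divided by the root of the F statistic. After the season mean was removed, the 2 libraries of a bear correlated at 0.0903 to 0.344 over genes (6 pairs), and libraries of different bears at a median of −0.0634. The lowest chi-square per gene between 2 libraries of a season was 30.2, so none repeated another. The fits were tested on simulated data first.

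The members, lists, pairs and the rule for named genes were chosen with earlier results of these data known. Values in every season are given for the 7 called rises, the 8 largest called falls and the paired carriers. Such values are also given for 6 carriers set by name, SLC25A3, SLC25A1, SLC25A10, SLC25A26, SLC25A44 and SLC25A46. Other genes are the 3 largest called changes in each direction of their list. TIMM22, SLC25A5, OAT and CPT2 were added after their values were seen. ACLY, ATP5MC2, PANK1, PANK2, PANK3 and the cell type markers are also outside this rule. Of the members 1 is counted but not reported here on its own.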

Additional observations from a re-analysis of the deposited data

Results flagged for a closer look

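Among the 33 carriers in each season, 66 groups of 6 libraries, 3 had a library whose gap to its nearest neighbour on the log2 scale, as a share of the range, exceeded Dixon's 95% critical value, where chance alone gives about 5% of groups, so this number is no more than chance gives. The summer library of bear 1316 held 21.7 CPM of the citrate carrier SLC25A1, and the other summer libraries 4.96 to 6.50 CPM. The same library was low in the glutathione carrier SLC25A40, at 31.5 CPM against 37.2 to 40.6 CPM in the others. The winter library of bear 1509, which lay apart on the second principal component, was low in SLC25A39, the other glutathione carrier, at 5.63 CPM against 9.51 to 12.8 CPM.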

How the results depend on the processing

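Under 14 alternative fits for each carrier, 418 of 459 comparisons kept the call or its absence and 0 turned a called direction. Of the 19 called carriers 12 kept their call in every alternative run and 7 lost it in at least 1, and 3 carriers not called were called in some. The number that rose was 4 with library totals and 3 at an adjusted p below 0.01 with fold limits of 1.3 and 0.77, and it ran from 4 to 8 when a bear was left out (4 without bear 1305, 1511 or 1512). The number that fell was 7 at those limits and 9 to 12 without a bear. Over all genes these limits left 2115 higher and 2325 lower. Without the replicate block 7 carriers were higher and 11 lower, SLC25A26 losing its call and SLC25A34 gaining one. With a prior count of 0.5 the pairs at an unadjusted p below 0.05 numbered 4 in place of 3, and 0 passed the adjustment under either, which says little since at least 6 pairs would have to reach the smallest p. With 5 bears the exact test cannot go below 0.0625, so it was not run. Of the 23 other genes followed, 317 of 322 comparisons were unchanged in call. SLC25A48, SLC25A35, SLC25A18 and SLC25A29 rest on few reads.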

Other observations

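The glutamate carrier SLC25A22 and SLC25A34, without a settled substrate, had their larger winter shifts in the same 3 bears. In bears 1305, 1511 and 1512 SLC25A34 shifted by 0.89, 1.64 and 1.32 on the log2 scale and SLC25A22 by 1.3, 1.84 and 1.49, whereas in bears 1316, 1317 and 1509 SLC25A34 shifted by 0.04, 0.20 and −0.32 and SLC25A22 by 0.38, 0.36 and 0.13. SLC25A10, SFXN4 and UCP3 also had their highest shifts in bears 1305, 1511 and 1512. The split of the bears was thus not particular to SLC25A22 and SLC25A34. It was noticed after the values were seen and was not tested.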
